A study of Arabidopsis thaliana with 12 samples.

Results

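The probe sets examined are an unbroken run of identifier numbers on the Affymetrix ATH1 array of Arabidopsis thaliana, the stretch of the array designed for the chloroplast and mitochondrial genomes. The run ends with the probe set of atpH and begins 1 number before that of nad4L. It holds 126 of the 22810 probe sets, and all 126 were kept whatever their brightness. A probe set is a group of short probes read together as a single value. Of the 126, the platform annotation placed 73 on the chloroplast genome, 13 on the mitochondrial genome and 5 at loci of the nucleus, and it named no gene for 35. A single gene was named for 82 probe sets, both copies of a duplicated gene for 8, and several genes for 1, which reads mitochondrial rps3 and rpl16. The chloroplast probe sets cover subunits of every photosynthetic complex, ribosomal proteins and the plastid RNA polymerase. The annotation thus matched an organelle genome for 86 probe sets and named a nuclear locus for 5. Whether those 5 also read organelle transcripts was not tested. The other 35 could not be checked.

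Rosettes had been sampled in 4 groups of 3 arrays: wounded plants in the dark, intact plants in the dark, wounded plants in the light and intact plants in the light. No ecotype, mutant or transgene is named in the sources used here. All plants were grown under days of 10 h and nights of 14 h and were moved to compost as seedlings of 10 days. They stood for 30 min at 22 °C in the light or dark before treatment. For dark wounded replicate 2 the sample text does not state that time or temperature. Leaves were crushed with a haemostat or left alone, and rosettes were cut 60 min later. The light groups stayed at a photon flux of 250 µmol per m2 and s. Each array took 1 extract from 15 to 17 pooled plants. The design comprised 3 replicate experiments, each holding all 4 treatments, and asks how light bears on the wound response. No group was sampled before the treatments began, so a level higher in the dark cannot be told from a level lower in the light.

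Chloroplasts and mitochondria keep small genomes of their own, inherited from bacterial ancestors. The chloroplast genome encodes core subunits of the photosystems, the cytochrome b6f complex, the ATP synthase and the NDH complex, the large subunit of Rubisco, and part of the machinery for its own transcription and translation. Many of its genes lie in clusters that are transcribed together and then cut and trimmed, so that RNA stability as well as transcription sets their levels. Most organelle transcripts lack the stable poly(A) tail of nuclear messengers, and the usual Affymetrix labelling primes on such tails, so a value here need not follow the total amount of an organelle RNA.

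Values are the authors' deposited GCRMA values, on the log2 scale. The array medians lay between 5.39 and 5.60 and no pair of arrays held identical values. Precision is limited by having 3 arrays a group. Of the 6 leaf markers listed, 3 were read and lay at 14.19 or above on every array. The root marker PYK10, the one of 3 root and flower markers that was read, ranged from 6.70 to 9.39, and its part in the results was not tested. The Affymetrix control for 25S ribosomal RNA, an RNA of the cytosol, averaged 7.57 ± 0.77 in dark wounded, 9.62 ± 0.95 in dark intact, 7.36 ± 1.06 in light wounded and 7.27 ± 0.33 in light intact rosettes (SD, n = 3 each). The actin 3' minus 5' control difference, which moves with RNA integrity, averaged 4.72 ± 0.15 in dark wounded, 4.85 ± 0.25 in dark intact, 4.94 ± 0.13 in light wounded and 5.20 ± 0.21 in light intact rosettes. The same difference for GAPDH averaged 1.63 ± 0.06, 1.73 ± 0.08, 1.68 ± 0.12 and 1.56 ± 0.08 in these groups. Light intact rosettes were thus highest for actin and lowest for GAPDH. The 3 dark intact arrays had the highest 25S values of the 12, and 1 of them, from experiment 2, stood at 10.67.

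Chloroplast probe sets were among the brightest on the array. A log2 value of at least 4 on at least 3 arrays was reached by 69 of the 73, against 13567 of 22746 non-control probe sets (59.6%). Their means over the 12 arrays ran from 2.14 to 15.37, with a median of 12.23. The 4 that missed this level were ndhF and ndhB of the NDH complex, petD of the cytochrome b6f complex, and the long reading frame ycf2. The brightest was atpB, the beta subunit of the ATP synthase, and its 12 arrays lay within 0.18 of each other. Mitochondrial probe sets were dim. Only 5 of 13 reached the level (nad4, nad7, ccb382, ccb452 and the probe set of rps3 and rpl16), and the median of the 13 means was 2.96. Of the 35 without a gene, 5 reached it.

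**Figure D1:**
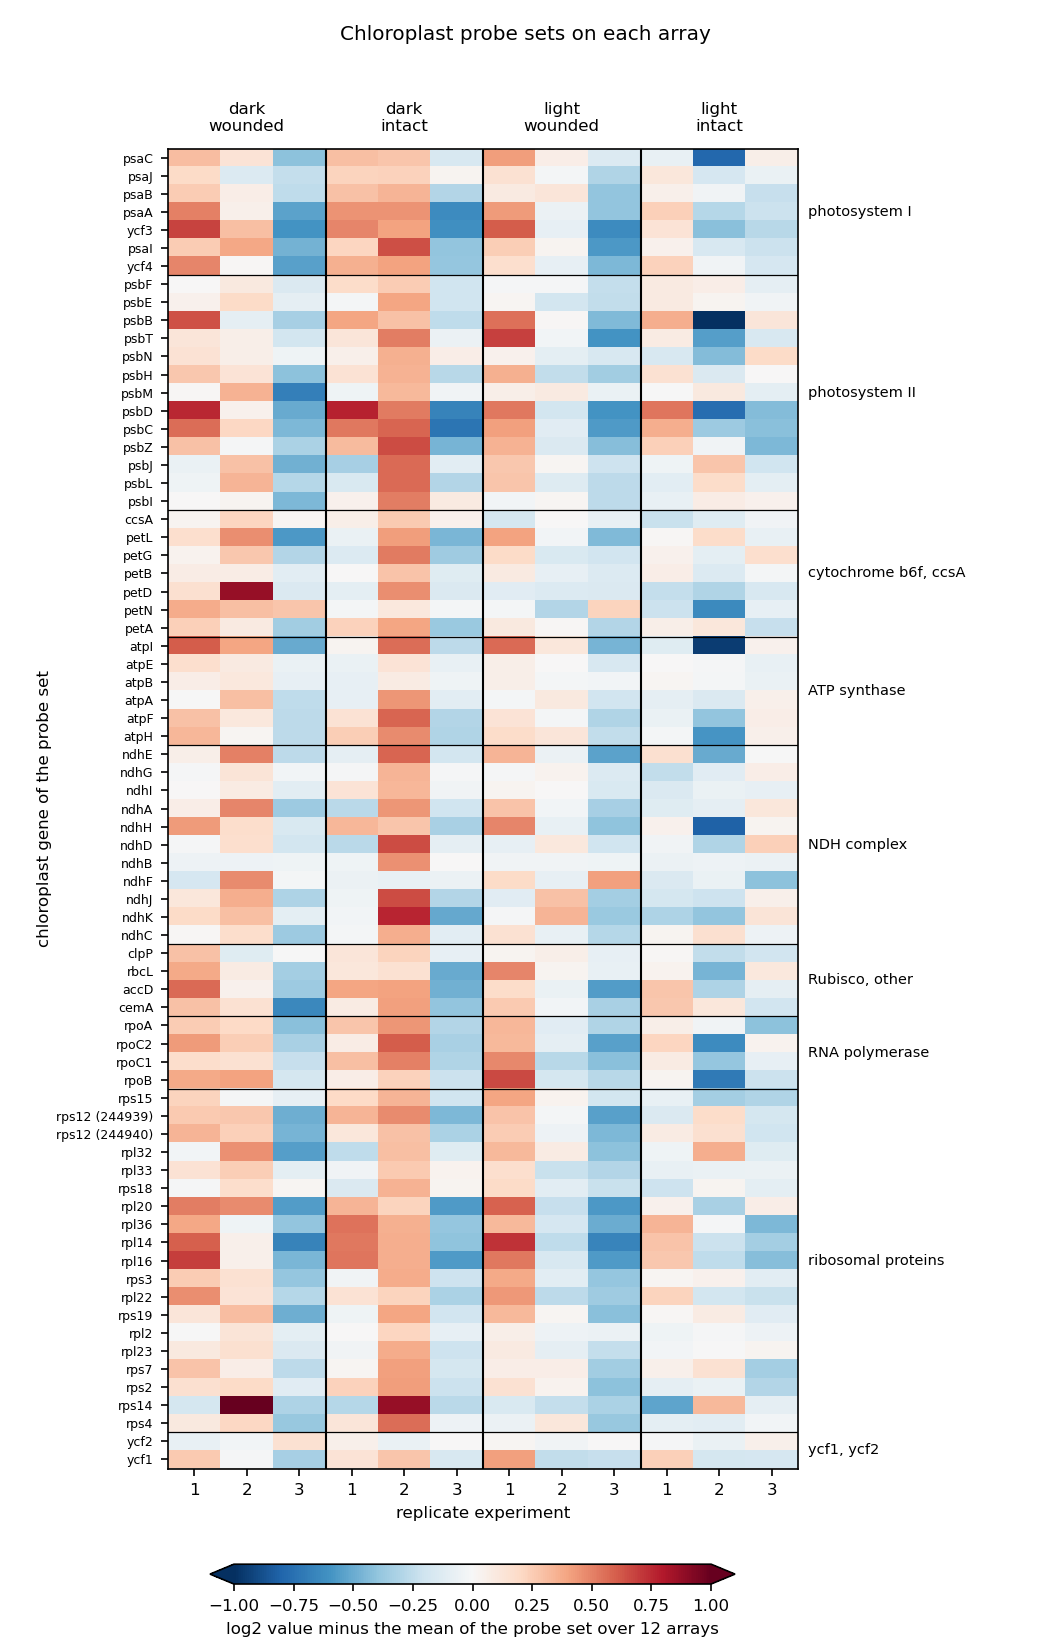
Each row is 1 of the 73 chloroplast probe sets, grouped by role, and each column is 1 of the 12 arrays. Colour gives the log2 value minus the mean of that probe set over the 12 arrays, and saturates at 1 in either direction. In each group the column of experiment 3 is mostly blue, and so are the light columns of experiment 2. The dark intact column of experiment 2 is mostly red.

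Crushing the leaves called no organelle probe set in the planned fit. None of the 126 was called in the dark, where 3.58% of all probe sets passed, and none in the light, where 7.95% did. Calls are at an adjusted p under 0.05 in limma, with Benjamini-Hochberg adjustment over 22746 probe sets. At an unadjusted p under 0.05 the count was also 0 in the dark and 0 in the light. With the replicate experiment as a block it stayed at 0 of 126, beside 6.99% of all probe sets in the dark and 14.8% in the light. Averaged over dark and light, 0 of 126 were called, against 12.2% of all probe sets, with 2 at an unadjusted p under 0.05; under the block it was 0 against 20.1%. In a sample of whole rosettes, fewer cells of a type and less RNA per cell cannot be told apart.

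The chloroplast probe sets bounded the wound effect more closely in the average than within a light condition. Their median log2 change, wounded minus intact, was -0.05 in the dark and 0.02 in the light, beside -0.02 and 0.02 over all probe sets. Averaged over dark and light, the 95% interval of the change lay within 2-fold in either direction for all 73. It did so for 67 of 73 in the dark and 64 of 73 in the light. Within 1.5-fold the counts were 55 in the average, 26 in the dark and 30 in the light. Single changes of this average ran from -0.23 for psbI, a small subunit of photosystem II, to 0.29 for petN, a small subunit of the cytochrome b6f complex. The medians were small enough for single arrays to turn their sign. In the dark the median was 0.10 without dark intact of experiment 2 and 0.11 without dark wounded of experiment 3, and ran down to -0.22 over the 12 omissions. In the light it was -0.12 without light wounded of experiment 1 and -0.01 without light intact of experiment 3, and ran up to 0.14. In the dark it was 0.26 with the 25S value as a covariate. That covariate is partly confounded with the dark intact group, whose arrays had the highest 25S values.

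The large subunit of Rubisco, rbcL, read 10.19, 9.90 and 9.48 in dark wounded, 9.93, 9.97 and 9.31 in dark intact, 10.31, 9.84 and 9.75 in light wounded, and 9.85, 9.35 and 9.92 in light intact rosettes, in experiments 1, 2 and 3. The groups overlap throughout. Its average wound change was 0.19 ± 0.18 (SE; limma, adjusted p = 0.701), with a 95% interval from 0.85-fold to 1.52-fold. The subunit petN read 7.71, 7.63 and 7.62 in dark wounded, 7.31, 7.44 and 7.32 in dark intact, 7.32, 7.04 and 7.56 in light wounded, and 7.12, 6.70 and 7.26 in light intact rosettes. The wounded arrays were higher than the intact ones in all 6 pairs of an experiment and light condition. Its average wound change was 0.29 ± 0.11 (SE; limma, adjusted p = 0.146), and the dark wounded arrays were the highest 3 of the 12. It was called in 2 of 8 other settings, with the block and centring (adjusted p = 0.0316) and with the block and without dark intact of experiment 2 (0.0365).

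Among members with a group mean of at least 4, the largest wound changes in the dark were in ccb382 (0.40 ± 0.30), psbI (-0.35 ± 0.16) and AT2G07708 (-0.29 ± 0.35). The mitochondrial gene ccb382 serves to attach haem to cytochrome c, and AT2G07708 is placed at a nuclear locus by the annotation. For psbI the values were 12.70, 12.72 and 12.24 in dark wounded and 12.73, 13.20 and 12.78 in dark intact rosettes, so every dark wounded array lay below every dark intact array, the nearest by 0.01 and the array of experiment 3 well below. Its adjusted p was 0.402 in limma. Such separation, lower with wounding in the dark, held for 1 of 73 chloroplast probe sets and 1722 of 22746 probe sets. In the light, and above the same level, the largest were atpI, the subunit a of the ATP synthase (0.42 ± 0.40), psaC (0.39 ± 0.27) and rpoB, a large subunit of the plastid-encoded RNA polymerase (0.37 ± 0.29), at adjusted p values from 0.502 to 0.556. For atpI the values were 8.46, 8.01 and 7.43 in light wounded and 7.77, 6.95 and 7.94 in light intact rosettes, and the groups overlap. For rpoB they were 6.56, 5.73 and 5.63 in light wounded and 5.92, 5.19 and 5.69 in light intact rosettes, and those overlap as well.

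**Figure D2:**
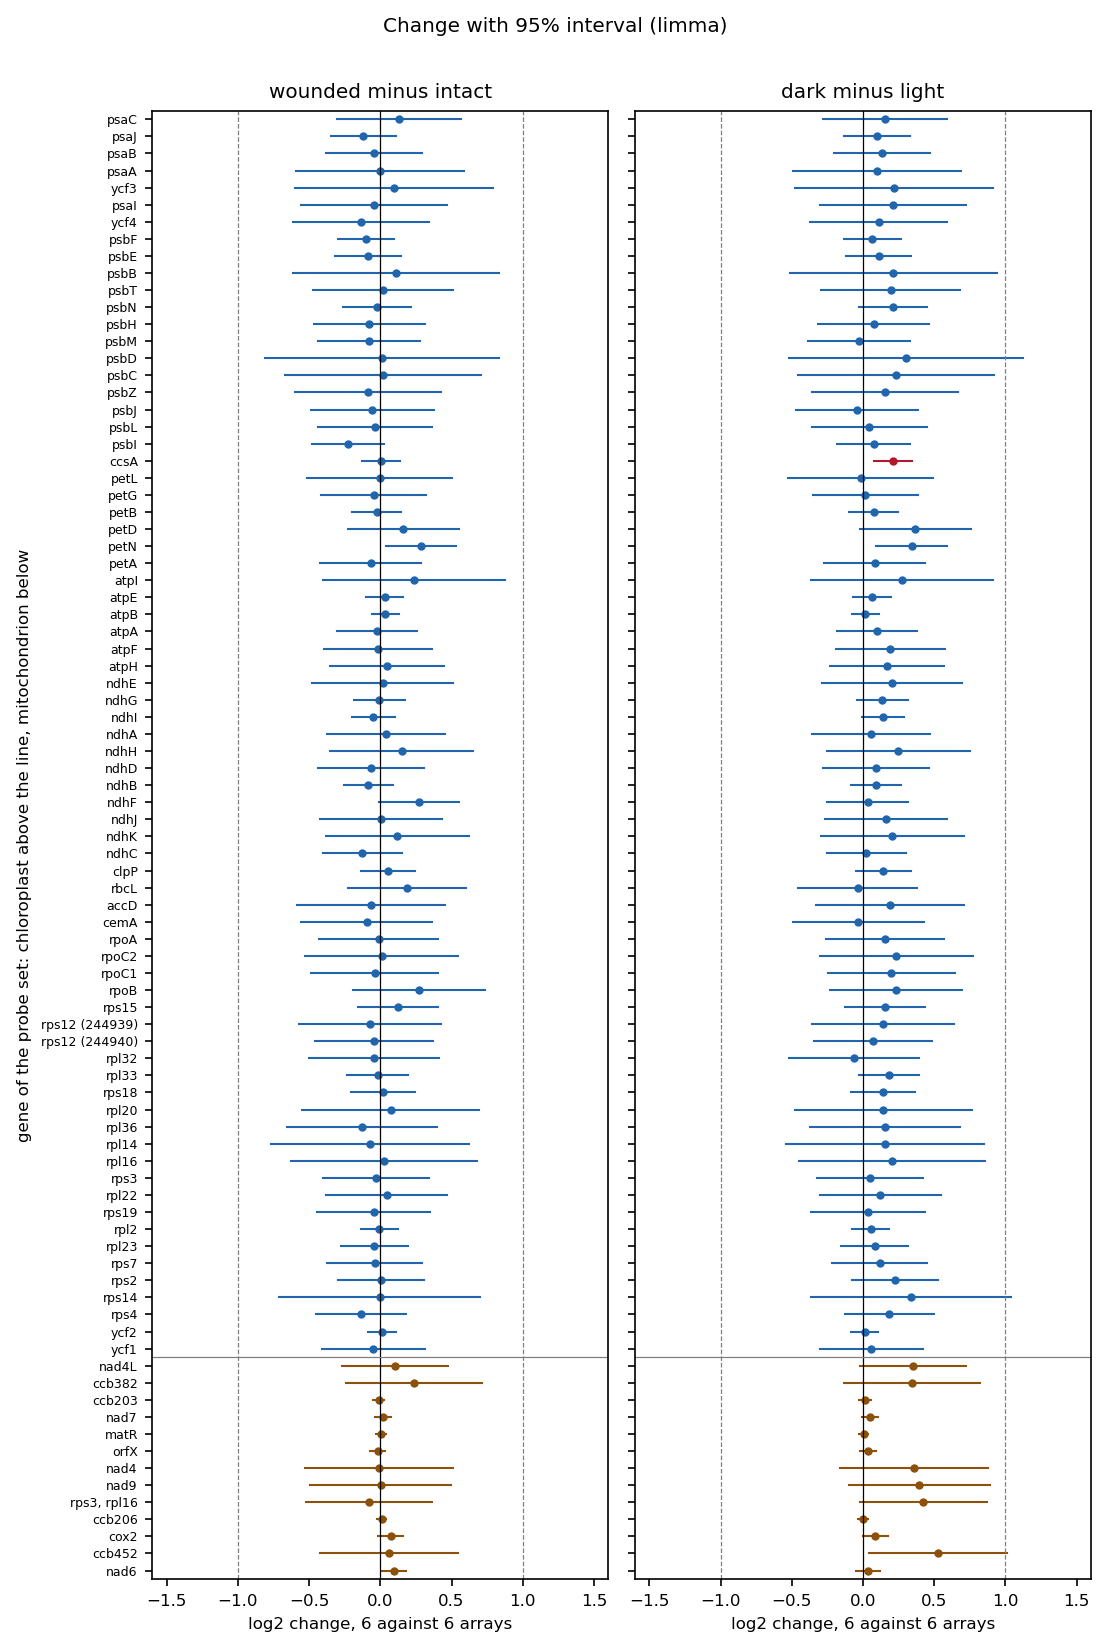
Points give the log2 change of each chloroplast probe set (above the line) and mitochondrial probe set (below it), wounded minus intact at left and dark minus light at right, and bars give the 95% interval from limma. Dashed lines mark a 2-fold change. Only ccsA, in red at right, passed the adjusted threshold.

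Darkness called few organelle probe sets, and each of those called was higher in the dark. In wounded rosettes 0 of 126 organelle probe sets were called, against 5.95% of all probe sets, and in intact rosettes 0 of 126, against 11.9%. At an unadjusted p under 0.05 the counts were 1 in wounded and 2 in intact rosettes. Averaged over wounded and intact rosettes, 1 of 126 was called, higher in the dark, against 19.5% of all probe sets (9.42% called higher). With the replicate block, 0 were called in wounded rosettes (background 15.1%), 4 in intact rosettes (22.2%, of which 9.2% higher) and 5 in the average (28.8%, of which 13.0% higher). All of these shares of members lie below the share of all probe sets.

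The median change of the 73 chloroplast probe sets, dark minus light, was 0.08 in wounded and 0.18 in intact rosettes, and 0.14 in the average, beside -0.01, 0.02 and 0.01 over all probe sets. In the average 67 of the 73 changes were positive and 6 negative. The probe sets move together on an array, so these signs are not 73 separate observations. Within the 6 pairs of an experiment and wounding state, 4 of the 73 were higher in the dark in every pair. The same count was not made over all probe sets, so it has no background. The median in wounded rosettes was -0.01 without dark wounded of experiment 1 and -0.05 without light wounded of experiment 3, and ran up to 0.24 over the 12 omissions of an array. The median in intact rosettes was 0.01 without the dark intact array of experiment 2, and -0.19 with the 25S value as a covariate. The average over wounded and intact rosettes was 0.07 without that array and -0.07 with the covariate. That array was the highest of the 12 for 39 of the 73 chloroplast probe sets, and it also had the highest 25S value. The dark intact arrays held the 3 highest 25S values, so the covariate is partly confounded with that group. It can take up part of any change that involves dark intact rosettes. Over all probe sets, calls for darkness in intact rosettes were 2716 without the covariate and 417 with it.

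The probe set called was ccsA, whose protein takes part in attaching haem to c-type cytochromes of the chloroplast. It read 13.61, 13.80 and 13.60 in dark wounded, 13.65, 13.85 and 13.63 in dark intact, 13.41, 13.59 and 13.51 in light wounded, and 13.36, 13.46 and 13.55 in light intact rosettes. Every dark array lay above every light array, as in 879 of 22746 probe sets and 1 of the 73 chloroplast ones. The dark minus light change was 0.21 ± 0.059 (SE; limma, adjusted p = 0.0351), and it was positive in 6 of 6 pairs. The call was lost in 4 of 8 other settings (adjusted p = 0.0875 with dim probe sets left out, 0.0787 with a trended robust prior, 0.319 with the 25S covariate and 0.122 with that covariate and the block). It was also lost without any 1 of 6 arrays: dark wounded and dark intact of experiment 2, light wounded of experiments 1 and 3, and light intact of experiments 1 and 2, with changes between 0.17 and 0.21.

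With the replicate block, ccsA was called at 0.25 ± 0.058 in intact rosettes (limma, adjusted p = 0.0206) and at 0.21 ± 0.041 in the average (adjusted p = 0.00759). The others called in the average under the block were petN (0.34 ± 0.099, adjusted p = 0.0394), rps2 of the small ribosomal subunit (0.22 ± 0.060, adjusted p = 0.0295), mitochondrial ccb452 (0.53 ± 0.14, adjusted p = 0.0291) and the unnamed 244990_s_at (0.38 ± 0.10, adjusted p = 0.0278). In intact rosettes the block added rps2, 244990_s_at and ndhI, a subunit of the NDH complex, at 0.24 ± 0.067 (adjusted p = 0.0398). Without the block, ccsA in the average was the single call among these. With the block and without the dark intact array of experiment 2, 0 of the 4 calls in intact rosettes remained (ccsA adjusted p = 0.0735, ndhI 0.0998, rps2 0.120 and 244990_s_at 0.0738 in limma). In the average, ccsA kept its call there (adjusted p = 0.0222), while petN (0.0717), rps2 (0.0545) and ccb452 (0.0763) lost theirs. With the 25S covariate and no block, the change in intact rosettes was 0.03 for ndhI and -0.14 for rps2, and that of rps2 in the average was -0.01.

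For rps2 the values were 11.81, 11.84 and 11.53 in dark wounded, 11.87, 12.06 and 11.43 in dark intact, 11.80, 11.68 and 11.23 in light wounded, and 11.55, 11.58 and 11.35 in light intact rosettes. The groups overlap across experiments, but within an experiment the dark array was the higher in 6 of 6 pairs. In the wounded pair of experiment 1 it was higher by only 0.008. For ndhI they were 14.56, 14.63 and 14.44 in dark wounded, 14.69, 14.89 and 14.52 in dark intact, 14.58, 14.55 and 14.40 in light wounded, and 14.41, 14.49 and 14.47 in light intact rosettes. Every dark intact array of ndhI lay above every light intact array, while the wounded groups overlap. Such separation in intact rosettes held for 6 of 73 chloroplast probe sets and 2798 of 22746 probe sets. The ATP synthase gene atpB had a dark minus light change of 0.02 ± 0.04, with a 95% interval from 0.95-fold to 1.08-fold, and rbcL one of -0.04 ± 0.18. Since atpB lies near the top of the scale, its interval may be narrow for that reason, which was not tested.

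Among members with a group mean of at least 4, the largest dark minus light changes in wounded rosettes were the mitochondrial probe set of rps3 and rpl16, 244944_s_at (0.52 ± 0.28), ccb382 (0.51 ± 0.30) and ccb452 (0.46 ± 0.30). In intact rosettes they were ccb452 (0.59 ± 0.30), 244990_s_at (0.51 ± 0.27) and atpI (0.45 ± 0.40). Without the block none of these passed, with adjusted p values in limma from 0.281 to 0.544. For atpI the values were 7.92, 8.46 and 7.64 in dark intact and 7.77, 6.95 and 7.94 in light intact rosettes. The pair of experiment 2 alone differed by 1.51.

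The wound effect was not shown to depend on light for any member. For the interaction, the wound change in the dark minus that in the light, 0 of 126 were called in limma, against 0.0132% of all probe sets, and 0 had an unadjusted p under 0.05. With the block it was 0 against 0.00879%. The precision is lower here: the 95% interval lay within 2-fold for 46 of 73 chloroplast probe sets. Among members with a group mean of at least 4, the largest interactions were in psaC, which carries iron-sulphur clusters of photosystem I (-0.51 ± 0.38), psbT of photosystem II (-0.42 ± 0.43) and rps15 of the small ribosomal subunit (-0.39 ± 0.25), all at an adjusted p of 0.819 in limma.

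By role, the darkness averages of the chloroplast lists lay close together. The median dark minus light change was 0.13 for photosystem I (7 probe sets), 0.11 for photosystem II (13), 0.08 for the cytochrome b6f complex with ccsA (7), and 0.13 for the ATP synthase (6). It was 0.13 for the NDH complex (11), 0.21 for the plastid RNA polymerase (4), 0.14 for ribosomal proteins (19) and 0.05 for Rubisco, clpP, accD and cemA (4). Apart from ccsA, 0 members of these lists were called. The matching wound medians ran from -0.06 for photosystem II to 0.03 for the ATP synthase.

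Dark and light arrays overlapped in the photosystem, ATP synthase and NDH members that follow. The reaction centre protein psaB of photosystem I read 14.49, 14.30 and 13.98 in dark wounded, 14.53, 14.58 and 13.95 in dark intact, 14.33, 14.36 and 13.84 in light wounded, and 14.29, 14.20 and 14.01 in light intact rosettes. The alpha subunit of the ATP synthase, atpA, read 14.03, 14.34 and 13.78 in dark wounded, 13.95, 14.47 and 13.93 in dark intact, 14.02, 14.13 and 13.84 in light wounded, and 13.95, 13.89 and 14.09 in light intact rosettes. In both genes the dark arrays of experiment 3 were among the lower values, and in neither did dark and light separate. The NDH subunit ndhA ran from 12.54 to 13.39 in the dark and from 12.57 to 13.18 in the light.

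The larger differences lay between the replicate experiments. These contrasts were added after the data had been seen, and compare the 4 arrays of 1 experiment with the 4 of another, with treatments matched. Between experiments 1 and 3, 19 of 73 chloroplast probe sets were called, all higher in experiment 1, against 6.55% of all probe sets (3.96% higher in experiment 1). The median of the 73 was 0.37. Among bright probe sets alone, 22 of 69 chloroplast probe sets were called, all higher in experiment 1, against a background of 14.5% (8.54% higher). Between experiments 2 and 3, 10 were called, all higher in experiment 2, against 8.12% (4.0% higher), with a median of 0.32. That count was 0 with the 25S covariate and 1 to 14 over the 12 omissions of an array. It was 1 without dark wounded and 2 without light wounded of experiment 3, 3 without dark wounded or dark intact of experiment 2, and 4 without dark intact of experiment 3. For the fits with the covariate or an omitted array, the share of all probe sets called is not given. In light intact rosettes the array median of experiment 2 (-0.12) lay below that of experiment 3 (-0.08). Between experiments 1 and 2, 2 were called, rpl36 and rpl16 of the large ribosomal subunit, both higher in experiment 1, against 10.9% (6.73% higher), with a median of 0.02 and a count of 0 to 4 over the omissions. The experiment took a median of 47.0% of the variance of a chloroplast probe set over the 12 arrays, against 25.5% for all probe sets. Wounding took 0.91%, against 8.58% for all probe sets, and darkness 6.56%, against 9.74%. Over all bright probe sets the medians were 20.7% for the experiment, 13.2% for wounding and 22.6% for darkness. The experiment has 3 levels and the treatments 2 each, so its share cannot be set directly beside theirs.

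**Figure D3:**
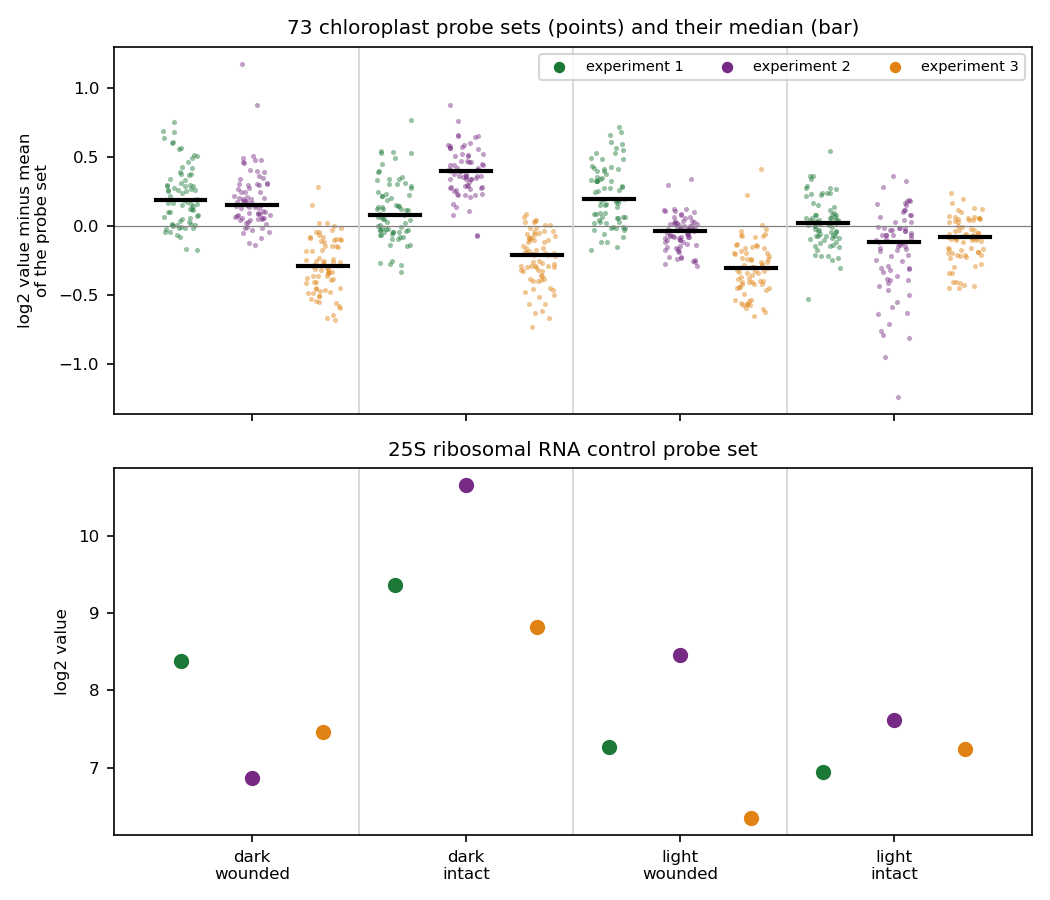
Above, points give the log2 value of each of the 73 chloroplast probe sets minus its own mean over the 12 arrays, and black bars their median on that array; below, the log2 value of the 25S control. Columns run by group, and colour marks the experiment. The array medians of experiment 3 lie between -0.30 and -0.08, below 0 in each group. Those of the light arrays of experiment 2 are also below 0, at -0.04 in wounded and -0.12 in intact rosettes.

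The number of calls between experiments 1 and 3 depended on single arrays. It was 2 without dark wounded of experiment 1 or of experiment 3, 3 without light wounded of experiment 1, and 6 without dark intact or light wounded of experiment 3. It was 8 without light intact of experiment 1, 10 without dark intact of experiment 1 and 11 without dark wounded of experiment 2. The remaining 4 omissions gave 15 to 21. The share of all probe sets called in these fits is not given. A loss of calls particular to chloroplast probe sets thus cannot be told from a general one. The median of the 73 moved less, between 0.30 and 0.44 over the 12 omissions, and every call was higher in experiment 1. With the 25S covariate 4 were called, at a median of 0.33. The 25S control itself averaged 7.99 ± 1.1 in experiment 1, 8.40 ± 1.64 in experiment 2 and 7.47 ± 1.02 in experiment 3 (SD, n = 4 each), and its part in the difference was not tested.

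The largest difference between experiments 1 and 3 was in psbD, the D2 protein of the photosystem II reaction centre. It read 12.67, 11.95 and 11.41 in dark wounded, 12.68, 12.43 and 11.24 in dark intact, 12.44, 11.73 and 11.32 in light wounded, and 12.45, 11.15 and 11.48 in light intact rosettes, in experiments 1, 2 and 3. The 4 arrays of experiment 1 were the highest 4 of the 12. The change was 1.20 ± 0.21 (SE; limma with the block, adjusted p = 0.0243). Next came rpl14 (1.05 ± 0.15) and rpl16 (1.01 ± 0.12) of the large ribosomal subunit, ycf3, an assembly factor of photosystem I (1.01 ± 0.19), and psbC, the CP43 antenna of photosystem II (1.00 ± 0.18). The reaction centre protein psaA of photosystem I differed by 0.85 ± 0.16 (adjusted p = 0.0317). The rbcL difference of 0.46 ± 0.18 did not pass (adjusted p = 0.183), and ccsA (-0.06 ± 0.050) and petN (-0.07 ± 0.12) had small differences of the other sign.

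**Figure D4:**
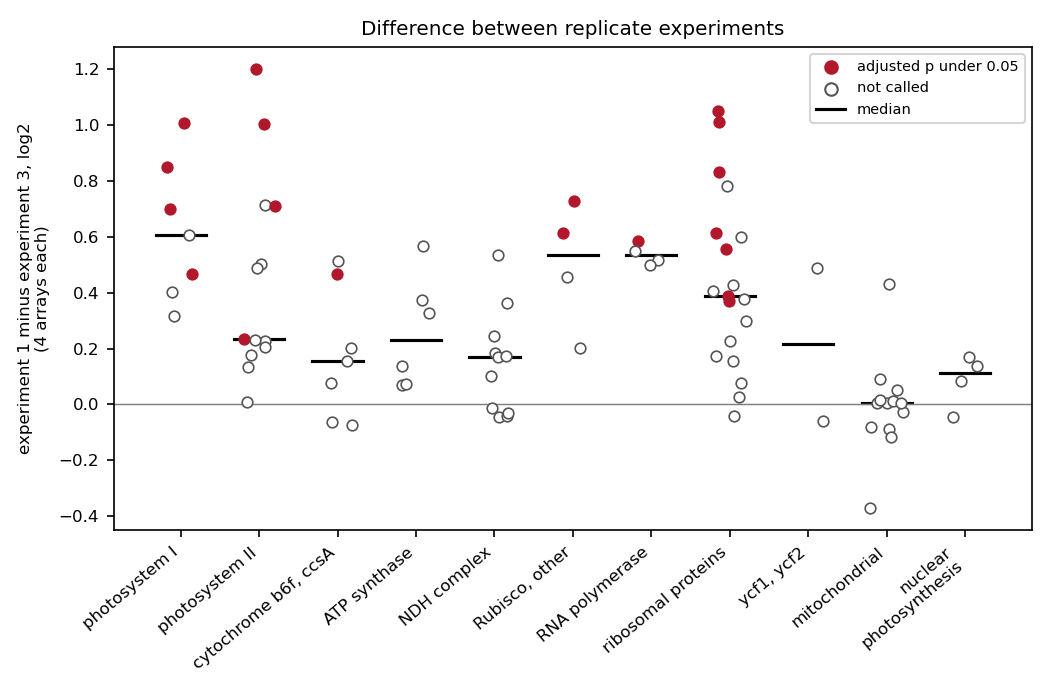
Each point is the difference of 1 probe set between experiments 1 and 3 (log2, 4 arrays each), by role; filled points passed an adjusted p under 0.05 and bars are medians. Photosystem I, with 4 of 7 called, has the highest median, 0.60, and the mitochondrial median is near 0.

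The difference between experiments 1 and 3 varied by transcription unit, the stretch of neighbouring genes read into 1 RNA. Of the 12 chloroplast transcription units listed from textbook knowledge, the unit of psbD, psbC and psbZ had the highest median (1.00, 3 of 3 called). The unit of psaI, ycf4, cemA and petA followed (0.61, 3 of 4 called), then the ribosomal protein cluster that ends in rpoA (0.59, 5 of 9 called). The unit of atpB and atpE had the lowest (0.10, 0 of 2 called), and atpB is the brightest chloroplast probe set. Over the 69 bright chloroplast probe sets the difference fell weakly with mean level (Spearman rho = -0.23). Its median was 0.15 for the 13 brightest (3 called) and 0.46 for the other 56 (16 called). Whether brightness accounts for the differences between units was not tested. Within a unit the levels need not match: psaA and psaB were called, and rps14 of the same unit had a difference of -0.04. After removing group means, pairs of bright chloroplast probe sets had a median Pearson r of 0.72 over the 12 arrays (2346 pairs, 97.9% positive). The median was 0.82 for 98 pairs within a unit and 0.74 for 1127 pairs between units. All these pairs share arrays, RNA extracts and normalisation.

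Likeness between single members was measured in the same way. The probe sets most like psbD were accD, psbC and psaA (r = 0.97, 0.96 and 0.96), and those most like rbcL were psaC, ndhH and atpH (r = 0.96, 0.95 and 0.93). The probe sets most like ccsA were ndhG, atpA and ndhJ (r = 0.85, 0.81 and 0.80). Its median r with the other bright chloroplast probe sets was 0.24, and that of petN was 0.06, while that of psbD was 0.74 and that of rbcL 0.71.

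**Figure D5:**
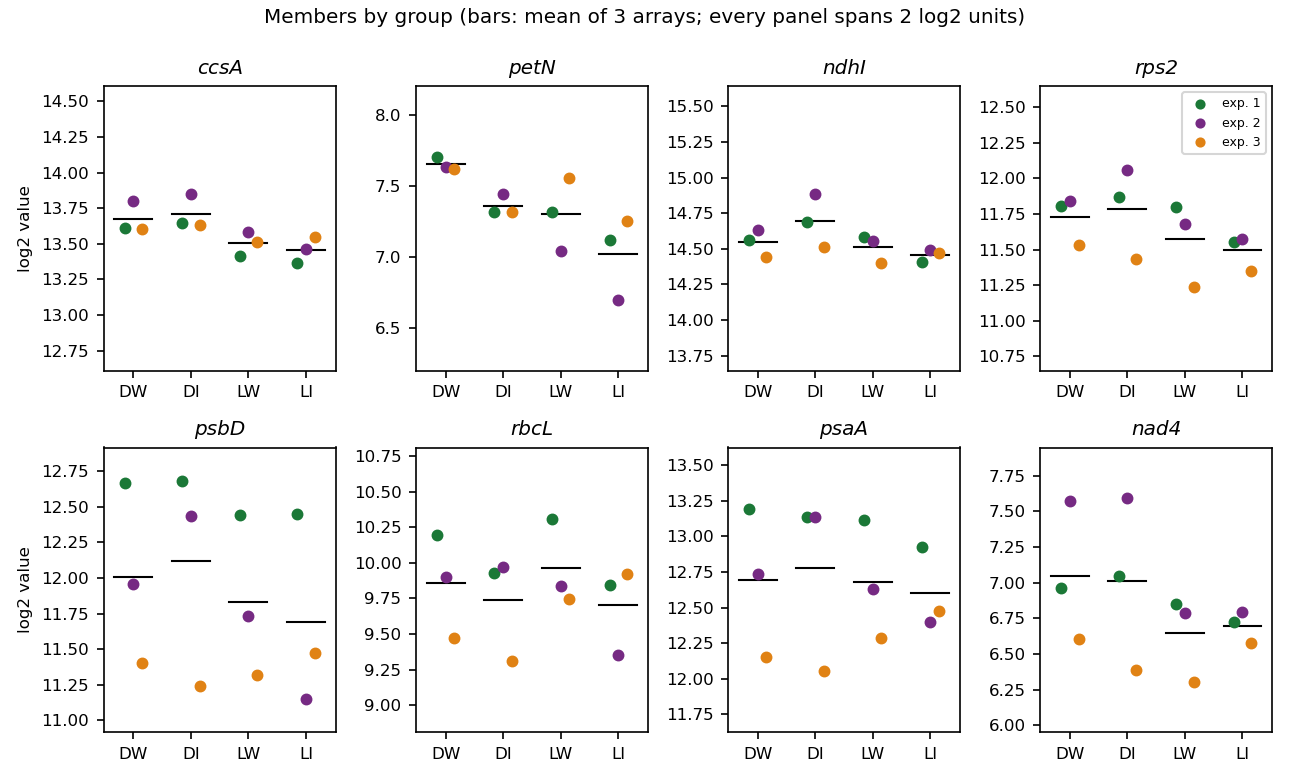
Each panel gives the log2 value of a member on the 12 arrays, by group (DW dark wounded, DI dark intact, LW light wounded, LI light intact), with colour for the experiment and a bar at the group mean. The 6 dark arrays of ccsA lie above its 6 light arrays, and psbD separates by experiment.

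Mitochondrial members were too dim for most changes to be read. The brightest was nad4, a core subunit of respiratory complex I. It read 6.96, 7.57 and 6.60 in dark wounded, 7.05, 7.60 and 6.39 in dark intact, 6.85, 6.79 and 6.30 in light wounded, and 6.73, 6.79 and 6.57 in light intact rosettes. The 2 highest values were the dark arrays of experiment 2. Its dark minus light change was 0.36 ± 0.23 (SE; limma, adjusted p = 0.385), and with the block it was called between experiments 2 and 3 (0.72 ± 0.16, adjusted p = 0.0414). For ccb452, which encodes another factor for attaching haem to cytochrome c, the values were 4.02, 5.01 and 4.32 in dark wounded, 3.95, 4.83 and 4.59 in dark intact, 3.86, 3.88 and 4.22 in light wounded, and 3.59, 4.22 and 3.78 in light intact rosettes. They lie around the brightness level of 4, and the change was 0.53 ± 0.21 (limma, adjusted p = 0.133) without the block. Of the 13 mitochondrial members, 12 had a positive dark minus light change, at a median of 0.09, beside 13110 positive of 22746 probe sets. Of the 13, 8 were dim, and all share the same arrays, so these signs are not 13 separate observations.

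Among members without a gene, 244979_at, 244981_at and 244990_s_at were also called between experiments 1 and 3, at 0.71 ± 0.13, 0.80 ± 0.14 and 0.59 ± 0.12. The annotation placed 15 further probe sets of organelle genes outside the range, among them psbA, matK, rps16 and psbK. Of these, 2 of 15 were called in the darkness average, beside 19.5% of all probe sets: cox1, a core subunit of cytochrome c oxidase, was higher in the dark (0.45 ± 0.12, limma adjusted p = 0.0249), and rps16 of the chloroplast ribosome was lower (-0.15 ± 0.042, adjusted p = 0.0386). For cox1 the values were 6.02, 6.39 and 6.31 in dark wounded, 5.67, 5.94 and 5.56 in dark intact, 5.46, 5.94 and 5.38 in light wounded, and 5.49, 5.33 and 5.55 in light intact rosettes. The dark wounded arrays were the highest 3. For psbA, the D1 protein of photosystem II, the average was 0.03 ± 0.18.

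Few nuclear partners of the organelles could be read. Of 9 sigma factors and phage-type polymerases listed, 1 was read (RPOTMP, dim), of 12 polymerase-associated proteins 0, and of 10 RNA-processing factors 1, PPR10, which was not called. Of 10 nuclear photosynthesis genes 4 were read. LHCB4.2, an antenna protein of photosystem II, fell with wounding in the light by 0.39 (limma, adjusted p = 0.0242). In the wounding average LHCB4.2 (-0.33, limma adjusted p = 0.0064) and ATPC1 (-0.20, adjusted p = 0.0353) were called lower, beside 12.2% of all probe sets called. In the darkness average ATPC1 alone of the 4 was called, lower in the dark (-0.18, limma adjusted p = 0.0360), beside 19.5%. Between experiments 1 and 3, 0 of the 4 were called, at a median of 0.11. Of 9 genes of the mitochondrial stress response 2 were read. UPOX was called in none of the comparisons, with a wound change of 0.55 in the dark (limma, adjusted p = 0.323) and 0.02 in the light (adjusted p = 0.959). NDB2, an alternative NADH dehydrogenase of the mitochondrion, rose with wounding by 1.07 in the dark (limma, adjusted p = 0.0125) and by 1.02 in the light (adjusted p = 0.0066), and was lower in the dark than in the light (-0.94 in wounded and -0.99 in intact rosettes; adjusted p = 0.0136 and 0.0064).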

How the data were processed

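Affymetrix ATH1 arrays had been hybridised with biotin-labelled RNA from 12 pools of rosettes. Per the submitters' processing notes the values came from GCRMA (no version given), and the authors deposited them as log2 values, from 1.46 to 15.85. The genome build is not given in the sources used here. Gene names came from the platform annotation and RefSeq; no sequence table was used here. All 22746 probe sets other than the 64 controls were fitted with limma 3.58.1 in R 4.3.3 (1 mean per group, 12 arrays, default empirical Bayes), with Benjamini-Hochberg adjustment and calls at an adjusted p under 0.05. The code was tested on simulated data.

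The groups share replicate numbers, which the series description ties to 3 replicate experiments. After removing group means, same-numbered arrays correlated over bright probe sets at r = 0.30 to 0.76 in all 18 pairs, and other pairs at -0.47 to -0.07. Removing the mean of 3 arrays itself pulls the other pairs below 0. Over the chloroplast probe sets the ranges overlapped, at 0.12 to 0.82 for same-numbered pairs and -0.71 to 0.32 for the others. The fit without a block was the planned one. The members, gene lists and transcription units were chosen with earlier results of these data known. Named genes are, per contrast, called members with the largest change (up to 6 in each direction, higher group mean at least 4 on the log2 scale) or else the 3 largest uncalled, the 2 brightest of each role list, and textbook representatives, of which those that carry a result are printed; the members described for differences between experiments were chosen after their values were seen. The array of dark wounded replicate 2 was placed by its title, since its treatment text is an abbreviation. Nothing says whether the pooled plants were independent beyond the replicate experiments.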

Additional observations from a re-analysis of the deposited data

Results flagged for a closer look

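The wound change of orfX (mttB in RefSeq) had opposite signs in the dark and in the light, with an interaction of -0.0740 ± 0.047 (limma, adjusted p = 0.819). It is dim, at a mean of 1.80 on the log2 scale, and lay below the level of 4 on every array.

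The control probe set for 25S ribosomal RNA, which is outside the comparisons, averaged 9.62 in dark intact rosettes, against 7.27 in light intact rosettes.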

How the results depend on the processing

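Of the calls in the planned fit, none reversed its sign in these settings; rps2, called under the block, did so with the 25S covariate. Counts of organelle members called were as follows. With the replicate block, darkness gave 4 in intact rosettes and 5 in the average, and the block changed no other count of the condition comparisons. Median centring gave 2 and 4 (12.2% and 19.8% of all probe sets called), and the block with centring 10 and 13 (22.3% and 29.5%), with 1 for average wounding (18.3%). The block with the 25S covariate gave 1 for wounding in the light (12.3% of all probe sets called) and 1 for darkness in wounded rosettes (12.4%). It gave 1 in intact rosettes (2.66%) and 5 in the average (13.8%). The average darkness count was 0 with a trended robust prior (18.6% of all probe sets) and 0 with the 25S covariate (8.95%). With the block and without the dark intact array of experiment 2, chosen after seeing the data, it was 2 (25.8%). The count in intact rosettes was then 0 (16.5%), with 1 for wounding in the light (14.3%) and 2 for average wounding (19%). Leaving out each array gave 0 to 1 for wounding in the dark (1.49% to 3.54% of all probe sets). It gave 0 to 1 for darkness in wounded rosettes (2.65% to 6.31%) and 0 to 1 in intact rosettes (7.54% to 11.6%). Average wounding gave 0 to 1 (9.71% to 12%) and average darkness 0 to 3 (15% to 19.4%). With the 25S covariate the chloroplast median was 0.26 for wounding in the dark, -0.19 for darkness in intact rosettes and 0.25 for the interaction. The cause was not tested, and the covariate is partly confounded with the dark intact group. Between experiments 1 and 2, chloroplast calls were 5 among bright probe sets, 4 with centring, 1 with the 25S covariate and 0 to 4 over omitted arrays. Between experiments 1 and 3 they were 4 with the covariate and 2 to 21 over omitted arrays (6 without dark intact replicate 3, 6 without light wounded replicate 3, 8 without light intact replicate 1 and 11 without dark wounded replicate 2). Between experiments 2 and 3 they were 20 among bright probe sets, 0 with the covariate and 1 to 14 over omitted arrays. No share of all probe sets is given here for these counts between experiments, so they cannot be set against a background. The number of arrays limits the precision, and dim probe sets lie near the floor of GCRMA values. Over all probe sets, planned, block and 25S-covariate counts were 815, 1590 and 34 for wounding in the dark, 1809 and 3363 (block) in the light, 1353 and 3428 (block) for darkness in wounded rosettes, 2716, 5055 and 417 in intact rosettes, 2772, 4582 and 1657 for average wounding, and 4444 and 2035 (covariate) for average darkness. With only the groups compared they were 109 for wounding in the dark, and 800 and 1204 for darkness in wounded and intact rosettes.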
